A study of Homo sapiens with 4 samples.

Results

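Genes that mark epithelial, mesenchymal and lung cells were examined in a human lung cancer line after circZFR, a circular RNA spliced from *ZFR*, was silenced. The 56 genes were chosen by name, as keratins, cell junction genes, factors of the epithelial-mesenchymal transition (EMT) and lung lineage genes, and all 56 were found among the 40205 genes listed for each library. The series held 4 RNA-seq libraries. In NC 1 and NC 2 the cells carried a negative control siRNA, and in si-circZFR 1 and si-circZFR 2 they carried an siRNA against circZFR, with total RNA taken after 24 h of transfection in RPMI with fetal calf serum in both groups. The replicates are not said to come from separate cultures, so the tests measure the spread between these libraries, which may be technical.

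The sample labels name the cells H1299 and the study design names them A549, both human lung cancer lines in long use. A549 is known to have lost *CDKN2A* and, with a mutant *KEAP1*, to make much of the NRF2 targets such as *AKR1B10*. *CDKN2A* was listed at 0 in all 4 libraries, and *AKR1B10* stood between 1271 and 1747 RPKM. Both are known features of A549, but which of the lines was sequenced was not tested. The fibrinogen genes *FGA*, *FGB* and *FGG*, which A549 is known to make, were low, between 0.761 and 6.89 RPKM. They were higher in both si-circZFR libraries than in both NC libraries, an order that held for 28.1% of all genes tested below.

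Epithelial cells hold to each other through E-cadherin (*CDH1*) in adherens junctions, through desmosomes tied to keratin filaments, and through tight junctions that seal the space between cells. In EMT, repressors such as ZEB1, SNAI1 and TWIST1 silence *CDH1* and other junction genes, and the cell takes on vimentin (*VIM*) and often N-cadherin (*CDH2*). Carcinoma lines can sit anywhere between these states. TGF-beta, acting through its receptors and SMAD proteins, is a well-known inducer of EMT, and alveolar type II cells are marked by the factor NKX2-1 and by surfactant proteins such as SFTPB.

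The deposited values were RPKM, which divides reads by gene length and library total, so that levels of different genes can be compared. The totals recovered from the values ran from 11040050 to 12816868 reads. RPKM values were further divided by a trimmed-mean factor per library and are called scaled RPKM below. A gene was tested where 2 or more libraries reached 1 RPKM, which held for 13885 genes and for 45 of the 56 members. Values were tested as log2(scaled RPKM + 1) by limma, and the differences, called log2FC here, are si-circZFR minus NC and understate the changes of low genes. The standard error of a log2FC is given as SE. The false discovery rate (FDR) was taken over all genes tested. The host gene *ZFR* passed the test, with 1437 and 1740 reads in NC against 284 and 267 after silencing and a log2FC of -2.33 (SE 0.17, limma FDR = 0.0388). Reads of the circular and the linear RNA are not separated in these values. By RT-PCR, the study found no detectable effect of its siRNA on *ZFR* expression in its cell lines. Whether the linear RNA was lowered in these libraries was not tested. For the differences below, loss of the circular and of the linear RNA cannot be told apart.

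Epithelial and mesenchymal genes were both expressed. *KRT7*, *KRT18* and *KRT8*, keratins of simple epithelia, were the most abundant members, with a mean over the 4 libraries of 1953, 1533 and 1096 scaled RPKM. *VIM*, the mesenchymal filament gene, followed at 579. *CDH1* and *CDH2* were both present, at 15.7 and 7.45. *ZEB1* and *SNAI1* stood at 2.81 and 3.07, and *ZEB2*, *SNAI2* and *TWIST1* were under 1 RPKM in every library. The epithelial regulators *ESRP1* and *ESRP2*, which steer epithelial splicing, and *GRHL2*, a junction gene activator, had between 0 and 3 reads in any library. No read was found on *GRHL2* or on *NKX2-1*, which at these depths allows up to 0.234 to 0.272 RPM (reads scaled to the library total) for counting error alone. *SFTPB* had 1 read in all. In contrast, *FOXA2*, an endoderm factor, and *MUC5AC*, a mucin of airway and stomach, were present at 23.2 and 33.4 scaled RPKM.

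**Figure D1:**
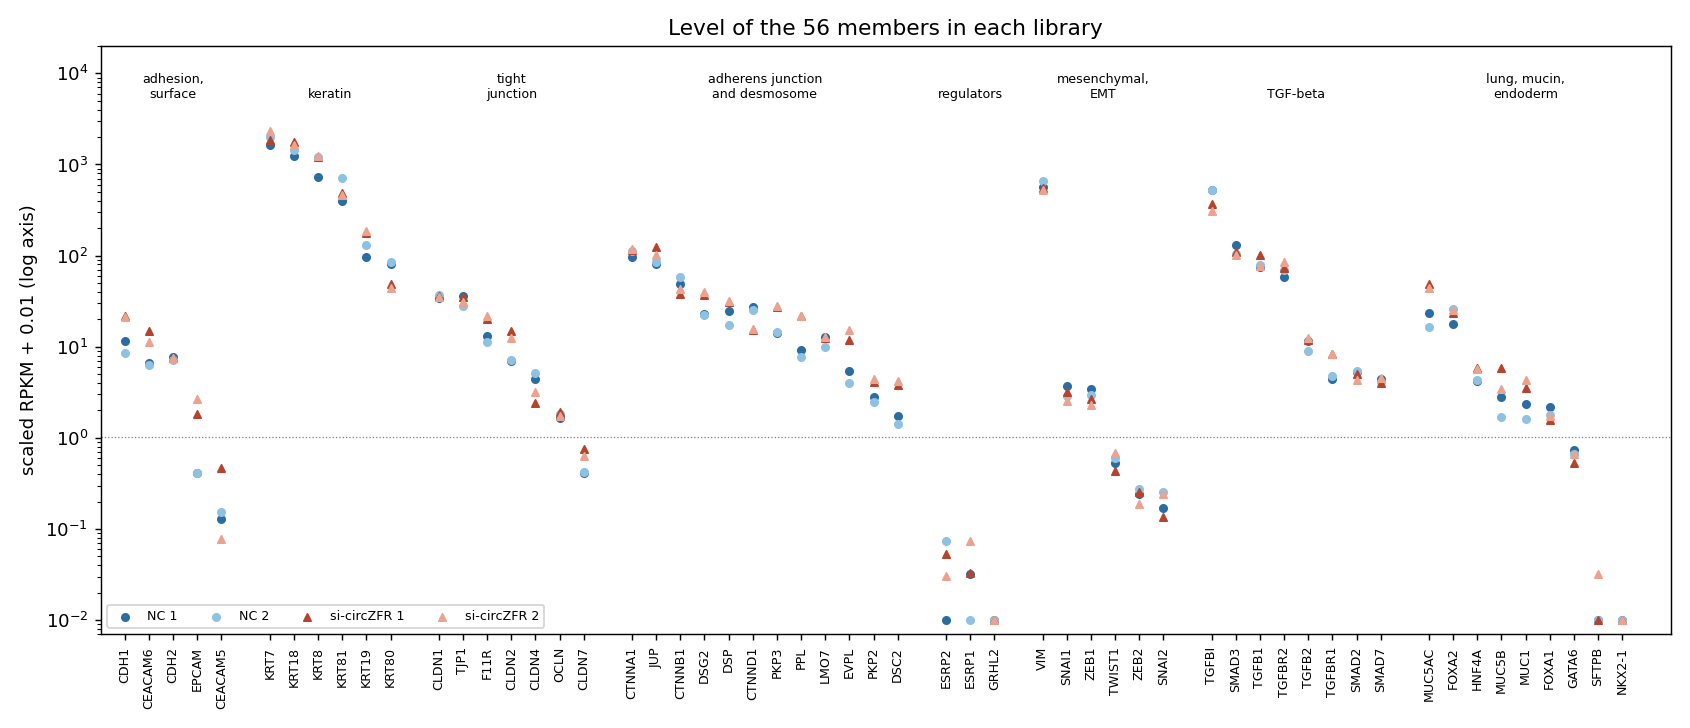
The level of each of the 56 members as scaled RPKM plus 0.01 on a log axis, with 1 point per library (circles for NC, triangles for si-circZFR) and members ordered by mean level within each role. *KRT7*, *KRT18*, *KRT8* and *VIM* have the highest mean levels, while *GRHL2* and *NKX2-1* lie at the floor with no reads, and the dotted line marks 1 RPKM.

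Of the 56 members, 23 were above 10 scaled RPKM in every library and 7 were above 100. The 11 members not tested, each under the RPKM minimum, were *CEACAM5*, *CLDN7*, *ESRP1*, *ESRP2*, *GRHL2*, *ZEB2*, *SNAI2*, *TWIST1*, *NKX2-1*, *SFTPB* and *GATA6*. *EPCAM* was the only member that entered the test through the si-circZFR libraries alone, and it therefore had to differ. It is included in the counts of higher members below, where its p and FDR are a description only.

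Markers of other cells were near 0. Of 7 type II alveolar markers, 6 were under 1 RPKM in every library, with a summed level of 0.56 to 0.891 RPKM in NC and 1.22 to 2.05 in si-circZFR, with *NAPSA* the highest of them. Of 6 fibroblast markers, 5 were under 1 RPKM, with a sum of 0.621 to 0.949 in NC and 1.41 to 2.24 in si-circZFR, nearly all from *COL1A1*, while *COL1A2*, *DCN* and *LUM* were at 0. All 4 endothelial markers were under 1 RPKM, and *PTPRC* and *CD3E* of the leukocytes were at 0, with *CD68*, also a lysosomal gene of other cells, at 61.1 to 79.5 RPKM and *LYZ* under 1. The part of the type II and fibroblast sums in the results below was not tested. In bulk RNA, fewer cells of a type and less RNA per cell cannot be told apart.

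After circZFR silencing, several epithelial surface, desmosome and mucin genes stood higher in both si-circZFR libraries and a few junction genes stood lower, but no member passed the test at the false discovery rate. Of the 13885 genes, 8 (0.0576%) passed FDR under 0.05 with |log2FC| over 1, and none of the 45 members did. The lowest FDR of a member was 0.0691 by limma, for *PPL*. At an unadjusted p under 0.05, 17 of 45 members (37.8%) were higher, against 10.1% of all genes tested, and 4 (8.89%) were lower, against 11.5%. In 24 of 45 members (53.3%) both si-circZFR libraries lay above both NC libraries, against 28.1% of all genes tested, and in 9 (20.0%) both lay below, against 28.1%. The median log2FC of the 45 members was 0.26, beside 0.0063 for all genes tested. These shares describe the list and carry no test of it.

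**Figure D2:**
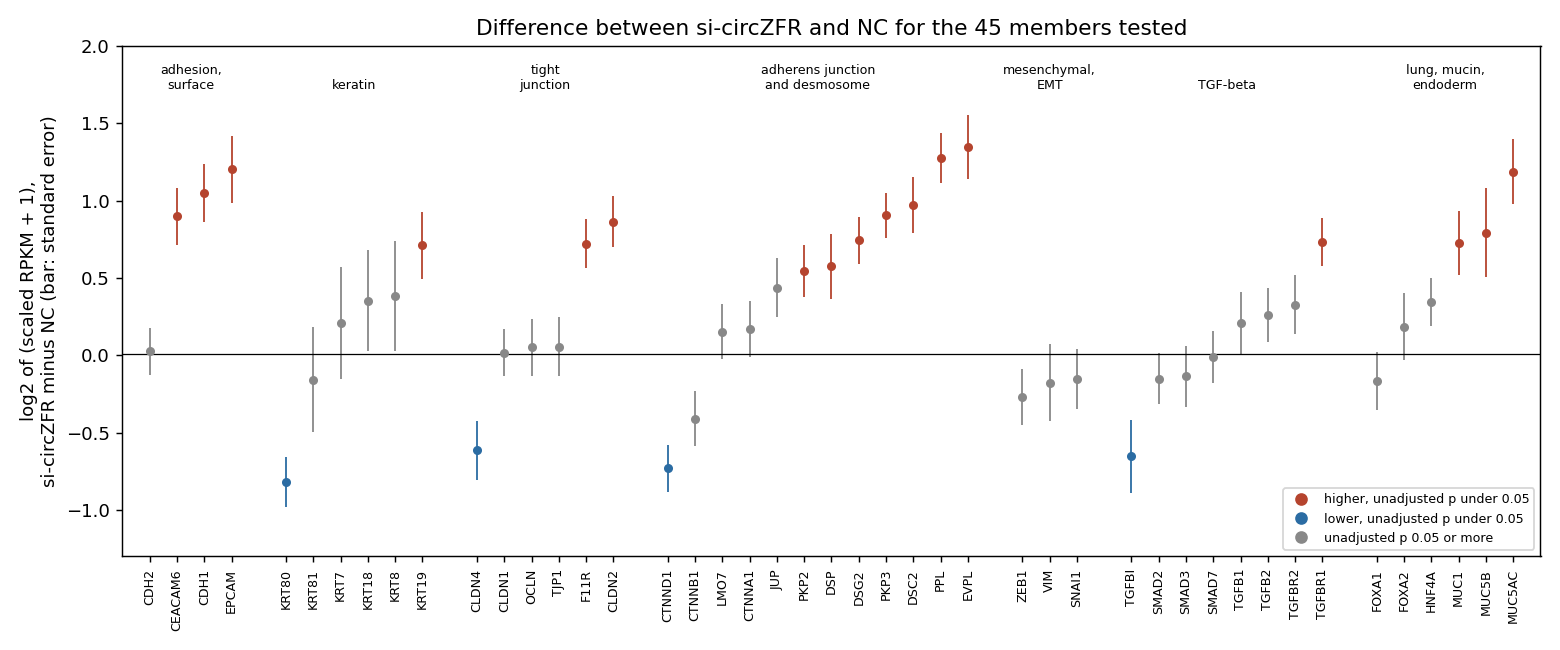
The log2FC of the 45 members tested (vertical axis, si-circZFR minus NC on the log2(scaled RPKM + 1) scale), with standard errors as bars, grouped by role. The 17 members in red and the 4 in blue had an unadjusted p under 0.05, none passed the FDR, and the black line is the median of all genes tested at 0.0063.

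The members had a median length of 3768 bases, against 2677 for all genes tested, and across the genes tested the log2FC correlated with length (Spearman's rho 0.294; genes are not independent replicates). Between NC 2 and NC 1 the same correlation was -0.344, so the NC libraries also differed from each other with length. After each library was corrected for its trend with length, 17 members were still higher at an unadjusted p under 0.05, against 10.6% of all genes, and 5 were lower, against 10.9%. The median log2FC of the members was then 0.23. Without NC 2 it was 0.34, and 17 members were higher and 3 lower. Scaling by the library total alone moved the median of all genes to 0.15 and that of the members to 0.42, or 0.27 above all genes, with 20 members higher and 2 lower.

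Among the adhesion and surface genes, 3 of 4 tested were higher in both si-circZFR libraries, against 28.1% of all genes tested. *EPCAM*, which had to differ, is among the 3. *CDH1* (chromosome 16, 68737292 to 68835537 of GRCh38) encodes E-cadherin, the calcium-dependent adhesion receptor of adherens junctions. Its level was 11.4 scaled RPKM in NC 1, 8.52 in NC 2, 21.7 in si-circZFR 1 and 21.3 in si-circZFR 2, and the same order of libraries is used for the pairs of values below. The groups were thus apart, and the means differed 2.16-fold, with a log2FC of 1.05 (SE 0.18, limma FDR = 0.0820). *CDH2*, which encodes N-cadherin, stood at 7.65 and 7.10 in NC and 7.45 and 7.59 in si-circZFR. Its groups overlapped, and its log2FC was 0.03 (SE 0.15). The ratio of *CDH1* to *CDH2* within a library averaged 1.35 in the NC libraries (SD 0.207, n = 2) and 2.86 after silencing (SD 0.079, n = 2).

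*EPCAM*, an epithelial surface adhesion protein, was low throughout, at 0.397 and 0.402 scaled RPKM in NC and 1.83 and 2.66 in si-circZFR, with a log2FC of 1.20 (SE 0.22, limma FDR = 0.0820). This rested on 4 and 4 reads against 18 and 28, the smallest whole numbers that give its values. These reads imply a length of 859 bases, 55.5% of the annotated transcript, so its true numbers may be a multiple of them. *CEACAM6*, a membrane-anchored adhesion protein of the carcinoembryonic antigen family, was at 6.71 and 6.30 in NC and 15.0 and 11.2 in si-circZFR, with a log2FC of 0.90 (SE 0.19, limma FDR = 0.0944). Its close relative *CEACAM5* had 5 and 6 reads in NC against 19 and 3 after silencing, and its groups overlapped. Reads of these similar genes could be split between them.

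**Figure D3:**
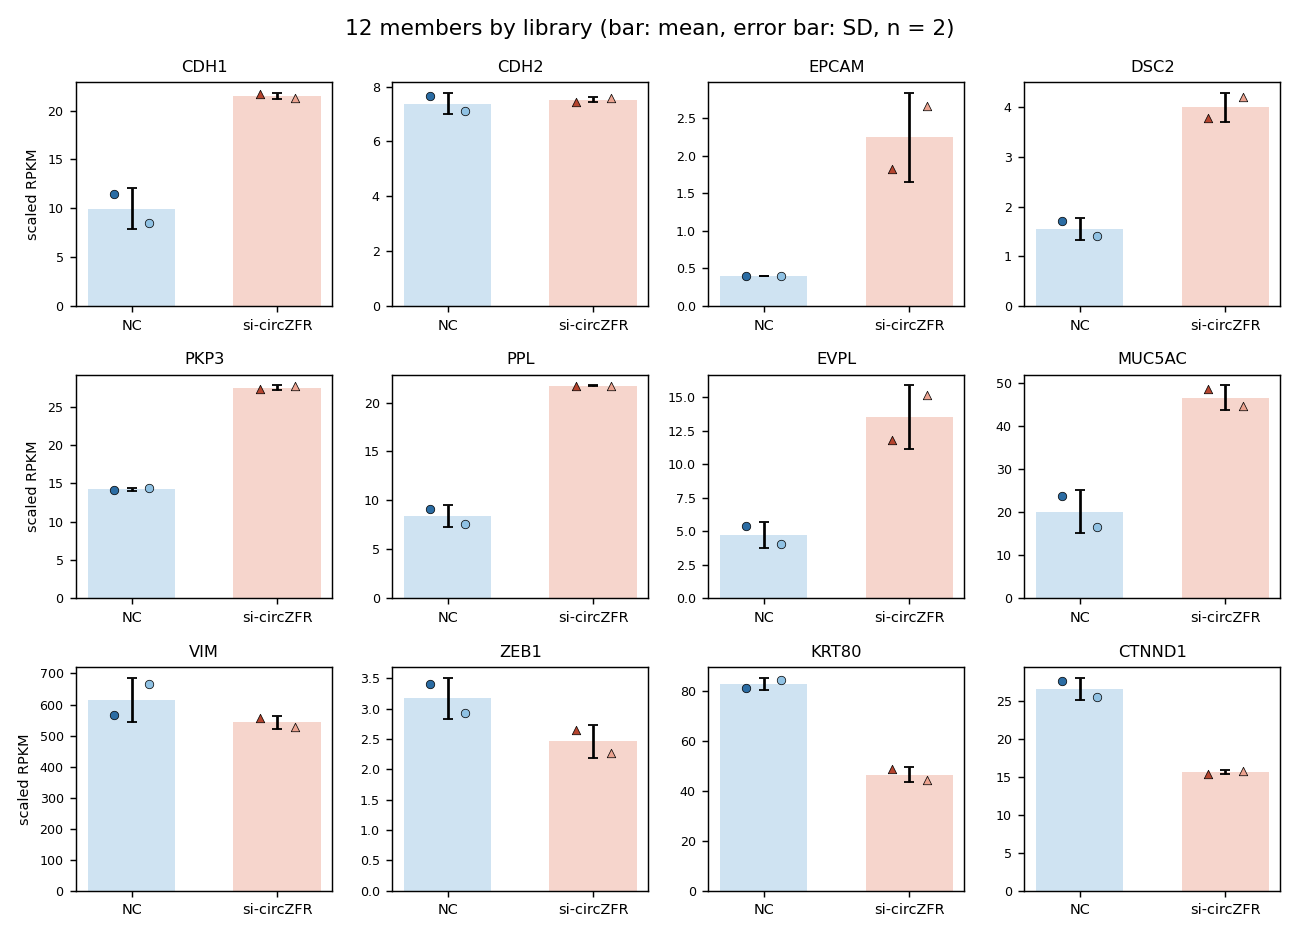
Scaled RPKM of 12 members in each library (circles NC 1 and NC 2, triangles si-circZFR 1 and si-circZFR 2), with bars at the group means and SD as error bars (n = 2). *CDH1*, *EPCAM*, *DSC2*, *PKP3*, *PPL*, *EVPL* and *MUC5AC* lie higher in both si-circZFR libraries, *KRT80* and *CTNND1* lie lower, *CDH2* overlaps, and *VIM* and *ZEB1* lie lower by less.

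Keratins form the intermediate filaments of epithelial cells as pairs of a type I and a type II chain. *KRT8*, the type II partner of *KRT18*, had 735 and 1200 scaled RPKM in NC and 1212 and 1238 in si-circZFR. The NC libraries lay farther apart than the group means, and the log2FC was 0.38 (SE 0.35). *KRT18* stood at 1243 and 1453 in NC and 1786 and 1652 in si-circZFR, and its log2FC was 0.35 (SE 0.32). Both genes have many processed copies in the genome, so their counts are uncertain. *KRT7* was at 1642 and 1980 in NC and 1869 and 2322 in si-circZFR, and its groups overlapped.

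*KRT19*, the shortest keratin and a marker of simple epithelium, was at 95.6 and 129 scaled RPKM in NC and 178 and 187 in si-circZFR, with a log2FC of 0.71 (SE 0.22, limma FDR = 0.160). *KRT80*, a type II keratin that is found in many epithelia and joins desmosomal plaques, went the other way. It had 81.1 and 84.5 in NC and 48.7 and 44.3 in si-circZFR, with the groups apart by more than their replicates and a log2FC of -0.82 (SE 0.16, limma FDR = 0.0922). *KRT81*, a hair keratin with near-identical relatives, ranged from 398 to 711 in NC and from 468 to 486 in si-circZFR. Its log2FC of -0.16 (SE 0.34) changed sign when libraries were scaled by their totals alone or NC 2 was left out.

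In tight junctions, 2 of 6 genes tested were higher and 1 lower at an unadjusted p under 0.05. Over all genes tested these shares were 10.1% and 11.5%. The other 3 tight junction genes hardly differed. *CLDN2*, a claudin that forms a pore for cations, had 6.95 and 7.07 scaled RPKM in NC and 14.9 and 12.3 in si-circZFR, and its log2FC was 0.86 (SE 0.17, limma FDR = 0.0877). *F11R*, which encodes the junctional adhesion molecule JAM-A, had 13.2 and 11.4 in NC and 20.2 and 21.5 in si-circZFR, and its log2FC was 0.72 (SE 0.16, limma FDR = 0.102). *CLDN4*, a claudin of tight epithelia, was lower, at 4.44 and 5.11 in NC and 2.39 and 3.18 in si-circZFR, and its log2FC was -0.62 (SE 0.19, limma FDR = 0.159). The claudin gene *CLDN1*, the occludin gene *OCLN* and *TJP1*, the gene of the scaffold ZO-1, overlapped between groups, with log2FC from 0.02 to 0.05 and standard errors of 0.15 to 0.19. After the length correction these 3 were below 0. *CLDN7*, not tested, had 10 and 10 reads in NC and 18 and 16 in si-circZFR.

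The members with the highest log2FC, *EVPL* and *PPL*, were among the adherens junction and desmosome genes. Desmosomes join the keratin filaments of neighbouring cells through the desmosomal cadherins (*DSG2*, *DSC2*), the armadillo proteins plakoglobin (*JUP*) and plakophilins (*PKP2*, *PKP3*), and the plakins (*DSP*, *PPL*, *EVPL*). All 12 genes of this role were tested, and 7 were higher and 1 lower at an unadjusted p under 0.05. Of all genes tested, 10.1% were higher and 11.5% lower at that threshold. The median log2FC of the role was 0.56, or 0.42 after the length correction. The 8 desmosome and plakin genes named here each lay higher in both si-circZFR libraries than in both NC libraries. This order held for 28.1% of all genes tested.

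*PPL* (chromosome 16, 4882507 to 4960741 of GRCh38) encodes periplakin, a plakin of the cornified envelope that also sits at desmosomes and keratin filaments. It had 9.17 and 7.63 scaled RPKM in NC and 21.7 and 21.7 in si-circZFR. The means differed 2.58-fold and the log2FC was 1.28 (SE 0.16, limma FDR = 0.0691). *EVPL* (chromosome 17, 76004502 to 76027306) encodes its binding partner envoplakin. *EVPL* had 5.39 and 4.03 in NC and 11.8 and 15.2 in si-circZFR, a 2.87-fold difference. Its log2FC of 1.35 (SE 0.20, limma FDR = 0.0782) was the highest of any member tested, on a scale that understates low genes. The means of *EPCAM*, a low gene that had to differ, were 5.62-fold apart. *PKP3* had 14.1 and 14.4 in NC and 27.3 and 27.7 in si-circZFR. The replicates of *PKP3* nearly coincided, and its log2FC was 0.90 (SE 0.15, limma FDR = 0.0812). *DSC2*, desmocollin 2, had 1.71 and 1.40 in NC and 3.79 and 4.21 in si-circZFR, and its log2FC was 0.97 (SE 0.18, limma FDR = 0.0820). *DSG2*, desmoglein 2, had 22.7 and 22.3 in NC and 37.0 and 39.8 in si-circZFR, and its log2FC was 0.74 (SE 0.15, limma FDR = 0.0936). Both desmosomal cadherins were thus higher in each si-circZFR library. *DSP*, the desmoplakin that anchors keratins, had 24.8 and 17.3 in NC and 30.9 and 31.9 in si-circZFR, with the NC libraries well apart. *PKP2* and *JUP* had log2FC of 0.54 and 0.44, with standard errors of 0.17 and 0.19.

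Of the catenins and plakoglobin, which join the E-cadherin complex, *CTNND1* and *CTNNB1* were lower in both si-circZFR libraries. *JUP* and *CTNNA1* were higher in both. Each of these orders held for 28.1% of all genes tested. *CTNND1*, which encodes p120-catenin, the protein that holds E-cadherin at the membrane, had 27.6 and 25.5 scaled RPKM in NC and 15.4 and 15.8 in si-circZFR. Its groups were apart by more than the replicates, with a log2FC of -0.73 (SE 0.15, limma FDR = 0.0936). *CTNNB1*, the gene of beta-catenin, had 49.2 and 58.6 in NC and 37.9 and 42.5 in si-circZFR, and its log2FC was -0.41 (SE 0.18). *CTNNA1*, which links the complex to actin, had a log2FC of 0.17 (SE 0.18), and *LMO7*, an actin-associated junction protein gene, one of 0.15 (SE 0.18) with overlapping groups.

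The promoters of 3 desmosome genes that were higher are shown because they hold E-boxes, the known type of site for ZEB1 and SNAI1, and were picked for holding them. The 250 bases before the annotated start come from RefSeq (GRCh38.p14), are written 5′ to 3′ on the gene's strand, and have CACCTG or its reverse complement CAGGTG in capitals. For *DSC2* the window with a match is given, of its 2 listed starts. *DSP* lies on the plus strand (chr6:7541421-7541670), *DSG2* on the plus strand (chr18:31497927-31498176) and *DSC2* on the minus strand (chr18:31102422-31102671).
DSP: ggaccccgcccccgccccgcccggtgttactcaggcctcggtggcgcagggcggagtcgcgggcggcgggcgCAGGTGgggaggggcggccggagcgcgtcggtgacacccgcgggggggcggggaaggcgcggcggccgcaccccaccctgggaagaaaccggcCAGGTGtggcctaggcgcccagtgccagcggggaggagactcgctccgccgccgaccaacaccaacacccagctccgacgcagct
DSG2: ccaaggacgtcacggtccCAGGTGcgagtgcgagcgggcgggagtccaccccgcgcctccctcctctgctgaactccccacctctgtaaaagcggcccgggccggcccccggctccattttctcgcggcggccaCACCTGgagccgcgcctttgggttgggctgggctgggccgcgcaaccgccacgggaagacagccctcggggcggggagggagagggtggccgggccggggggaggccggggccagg
DSC2: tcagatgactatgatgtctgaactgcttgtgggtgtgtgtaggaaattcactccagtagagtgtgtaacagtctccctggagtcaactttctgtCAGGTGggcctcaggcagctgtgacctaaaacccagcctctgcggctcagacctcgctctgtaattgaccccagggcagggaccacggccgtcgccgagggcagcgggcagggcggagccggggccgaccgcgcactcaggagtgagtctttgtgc

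The first base of each match lies 178 and 85 bases before the start in *DSP*, 232 and 116 in *DSG2* and 156 in *DSC2*. A window of 250 bases before the start and 50 after it was listed for 34 of the 56 members, and 17 of the 34 held a match in any of their windows. Of the windows themselves, 32.0% of 75 held a match, against 20.6% of all 35116. Among members with a window, 5 of 7 that were higher at an unadjusted p under 0.05 held a match, as did 0 of 2 that were lower and 9 of 19 of the other members tested. Some genes have several windows, which makes a match in any of them more likely. The share of all genes with a match in any window was not taken, so the counts of members have no background. A match is only a run of letters.

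The mesenchymal genes and EMT factors showed small differences. *VIM* had 566 and 665 scaled RPKM in NC and 558 and 528 in si-circZFR, and its log2FC was -0.18 (SE 0.25). *ZEB1*, the repressor of *CDH1* and many junction genes, had 3.40 and 2.93 in NC and 2.65 and 2.27 in si-circZFR. The *ZEB1* groups were apart, with a log2FC of -0.27 (SE 0.18, limma FDR = 0.421). *SNAI1* had 3.69 and 2.88 in NC and 3.17 and 2.53 in si-circZFR, with overlap, and a log2FC of -0.15 (SE 0.20). *ZEB2*, *SNAI2* and *TWIST1* had 20 to 28, 3 to 6 and 12 to 20 reads per library, with overlap in each. The ratio of *VIM* to *KRT18* averaged 0.456 in the NC libraries (SD 0.00196, n = 2) and 0.316 after silencing (SD 0.00507, n = 2). With the partner keratin the NC libraries lay farther apart, and the ratio of *VIM* to *KRT8* was 0.77 and 0.554 in NC against 0.46 and 0.426 after silencing.

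For TGF-beta signalling, 1 of 8 genes tested was higher and 1 lower at an unadjusted p under 0.05, near the shares over all genes tested (10.1% and 11.5%). *TGFBR1*, the type I receptor kinase, had 4.37 and 4.81 scaled RPKM in NC and 8.22 and 8.38 in si-circZFR, a 1.81-fold difference with a log2FC of 0.73 (SE 0.16, limma FDR = 0.0968). *TGFBR2*, the type II receptor that activates it, had 57.7 and 69.6 in NC and 73.7 and 86.2 in si-circZFR, and its log2FC was 0.33 (SE 0.19). *TGFBI*, a secreted matrix protein gene induced by TGF-beta, was lower, at 526 and 528 in NC and 367 and 305 in si-circZFR, and its log2FC was -0.65 (SE 0.24, limma FDR = 0.195). The log2FC of *TGFBI* was -0.78 without si-circZFR 1 and -0.52 without si-circZFR 2. Its unadjusted p by limma was under 0.05 only with both si-circZFR libraries. This also held for *KRT19*, *DSP* and *PKP2* among the higher members. The ligands *TGFB1* and *TGFB2*, at 75.8 to 103 and 8.89 to 12.6 scaled RPKM, had log2FC of 0.21 and 0.26 with standard errors of 0.20 and 0.18. *SMAD2*, *SMAD3* and the inhibitory *SMAD7* had log2FC from -0.15 to -0.01.

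Among lung, mucin and endoderm genes, the 3 mucins were higher in both si-circZFR libraries and the transcription factors differed less. Both si-circZFR libraries lay above both NC libraries in 28.1% of all genes tested. *MUC5AC*, a gel-forming mucin of airway and stomach surface cells, had 23.7 and 16.7 scaled RPKM in NC and 48.7 and 44.6 in si-circZFR. Its means differed 2.31-fold, with a log2FC of 1.19 (SE 0.21, limma FDR = 0.0820). The smallest length that gives whole reads was 2805 bases, 16.1% of the annotated transcript. The true length and reads of *MUC5AC* may be a multiple of these, or its values may cover only a stretch. *MUC5B*, the gel-forming mucin of airway glands, had 2.77 and 1.67 in NC and 5.86 and 3.40 in si-circZFR, with replicates wide apart in both groups, a length behind its values of 8958 of 17911 bases and a log2FC of 0.79 (SE 0.29, limma FDR = 0.198). *MUC1*, a membrane-bound mucin, had 2.35 and 1.60 in NC and 3.52 and 4.27 in si-circZFR, and its log2FC was 0.73 (SE 0.21, limma FDR = 0.144). *HNF4A*, an endoderm transcription factor, had 4.25 and 4.34 in NC and 5.78 and 5.65 in si-circZFR, and its log2FC was 0.34 (SE 0.16). *FOXA1* and *FOXA2*, pioneer factors of endoderm, had log2FC of -0.17 and 0.19 with standard errors of 0.19 and 0.22. *GATA6* had 23 to 33 reads per library.

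Of 83 other genes of the same pathways, listed by pathway, 45 were tested. None passed the FDR, and 10 were higher and 3 lower at an unadjusted p under 0.05. Over all genes tested these shares were 10.1% and 11.5%. The median log2FC of the 45 was 0.20. Tight junction genes accounted for 3 of the higher ones, with *CRB3* among them, and other epithelial regulators and surface genes for 2. Of the 4 other cadherin and desmosome genes tested, 2 were above 0 and 2 below, with a median of -0.07. At the same threshold 1 of them was higher and 1, *PKP4*, was lower (log2FC -0.44, SE 0.17). *SPINT1*, an inhibitor of epithelial surface proteases, had 1.38 and 0.523 scaled RPKM in NC and 4.34 and 3.07 in si-circZFR, and its log2FC was 1.29 (SE 0.28, limma FDR = 0.100). *CRB3*, a polarity protein gene of the apical membrane, had 0.889 and 1.02 in NC and 2.43 and 2.33 in si-circZFR, and its log2FC was 0.79 (SE 0.18, limma FDR = 0.110). *CRB3*, like *EPCAM*, reached 1 RPKM in the si-circZFR libraries alone, so it had to differ, and its values are a description. The 6 other EMT genes tested had a median log2FC of -0.35, 4 of them below 0 and none at an unadjusted p under 0.05. The 14 other TGF-beta genes tested had a median of 0.28, with 4 higher and 1 lower at that threshold.

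The 7-mer CTGACTC was looked for in the 3′UTRs of the members because earlier results of these libraries had singled it out. It was present in 6 of 44 members tested that have an annotated 3′UTR (13.6%), against 11.3% of 10351 genes tested. Of the members with it, *KRT80* (2 copies) and *CTNND1* (1 copy) had a log2FC of -0.82 and -0.73, *ZEB1* (3 copies) and *SMAD2* (1 copy) -0.27 and -0.15, and *CEACAM6* and *CLDN2* (1 copy each) 0.90 and 0.86. Of the 4 members lower at an unadjusted p under 0.05, 2 held it, and *CLDN4* and *TGFBI* did not. It was held by 2 of the 17 higher ones. The share among all lower or all higher genes was not taken. As the 7-mer was picked from these same libraries, the counts are a description only.

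Under the other settings tried, 26 of the 27 members described most closely kept the sign of their log2FC throughout, and *CDH2* did not. Most of the 27 were picked for the smallest p in their role or over all, so their signs were likely to hold. Of the other members tested, *CLDN1*, *FOXA2*, *KRT81*, *LMO7*, *OCLN*, *SMAD3*, *SMAD7* and *TJP1* changed sign in some setting. With limma-voom on the recovered reads, 8 members had an FDR under 0.05, namely *CDH1*, *CLDN2*, *DSC2*, *PKP3*, *PPL*, *EVPL*, *TGFBR1* and *MUC5AC*. With genes above 1 CPM in at least 2 libraries tested instead, 5 of the same 45 members did, namely *EPCAM*, *PKP3*, *PPL*, *EVPL* and *MUC5AC*. *EPCAM* was above 1 CPM in the si-circZFR libraries alone, so it had to differ there as well. With the replicate number as a block and the length correction, 9 members and 391 of the 13885 genes had an FDR under 0.05. The 9 were the lower *KRT80* and *CTNND1* and the higher *CDH1*, *EPCAM*, *CEACAM6*, *PKP3*, *PPL*, *EVPL* and *MUC5AC*. Over the 13 other settings the FDR of *PPL* ran from 0.0191 to 0.622 and that of *CDH1* from 0.0338 to 0.622. The log2FC of *EPCAM*, which has few reads, was 2.33 by limma-voom and 1.92 with a pseudocount of 0.25. *KRT8* had a log2FC of 0.03 without NC 1 and 0.74 without NC 2, and *KRT81* -0.58 and 0.26.

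**Figure D4:**
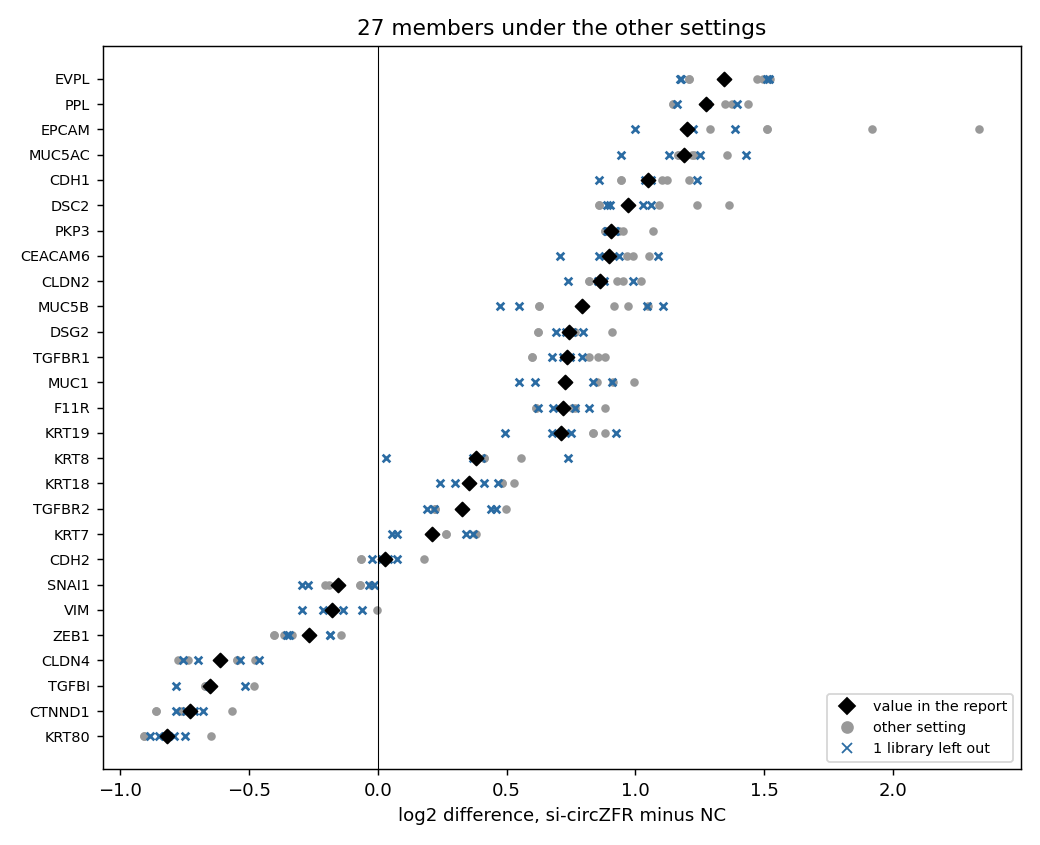
The log2FC of 27 members (horizontal axis, si-circZFR minus NC) as reported (black diamonds), under the other settings (grey circles) and with 1 library left out (blue crosses). *PPL* stays between 1.15 and 1.44 and *KRT80* between -0.91 and -0.65, while *CDH2* lies on both sides of 0.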

How the data were processed

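The 4 RNA-seq libraries were grouped by their labels. They were made with the Ion Total RNA-Seq kit and run on the Proton sequencer. The study's methods give alignment to hg38, whereas the processing note in the labels gives GRCh37. The aligner, the counting and the strand setting are not given in the sources used here. The authors deposited RPKM values for 40205 genes per library. The methods mention batch removal by SVA and do not say whether these values had it.

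Whole reads were recovered by finding the library total and gene length at which the values are whole (tolerance 0.0001), for 99.97% of 24289 genes above 0. Totals rest on small RNA genes of known length, 96.4% to 96.9% of which came out whole. For each gene the smallest such reads were used. Scaling used trimmed means over the genes tested (30% of ratios and 5% of mean levels trimmed), with factors from 0.904 to 1.11. Limma 3.58.1 in R 4.3.3 was fitted to log2(scaled RPKM + 1) with a trended prior variance, tested on simulated data, and adjusted over all genes by Benjamini-Hochberg. The authors used edgeR, which needs counts. The members, the lists and the tests were chosen with earlier results of these data known. Values per library are given for 10 set members, the 3 with the smallest p in each role and the 12 with the smallest p. The 12 members plotted by library and the other genes named were picked after their values were seen. Gene positions and 3′UTRs came from GENCODE on GRCh38. Alternatives covered scaling, filter, pseudocount, length, the replicate block, voom and each library left out. Python 3.11.15, pandas 2.3.3, numpy 2.4.6 and matplotlib 3.10.9 were used. Some marker genes are not reported here.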

Additional observations from a re-analysis of the deposited data

How the results depend on the processing

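The number of genes past FDR under 0.05 and |log2FC| over 1, 8 as reported, was 0 without a filter (3676 genes at an unadjusted p under 0.05), 5 with a pseudocount of 0.25, 14 with the length correction, 200 with the CPM filter and 304 by limma-voom. With 1 library left out it ran from 0 to 717 by limma: 717 without NC 1, and 0 without NC 2, si-circZFR 1 or si-circZFR 2 (2545, 1530 and 1040 at an unadjusted p under 0.05). A lone library was then assumed to vary like the other group. Members past both thresholds, 0 as reported (21 at an unadjusted p under 0.05), were 4 with the CPM filter, 5 by limma-voom and 0 to 5 with 1 library left out, the 5 (*CDH1*, *DSC2*, *PPL*, *EVPL* and *MUC5AC*) without NC 1, where the FDR of *DSC2* was just under 0.05 by limma. Members higher at an unadjusted p under 0.05 ran from 13 to 18 with 1 library left out and lower ones from 2 to 6, the 2 without si-circZFR 1. Lower ones were also 2 with scaling by library totals. The members' median log2FC was 0.42 with that scaling, 0.18 without a filter over 54 members, and 0.23 to 0.34 with 1 library left out. *CDH2* was at -0.067 with the length correction, also with the replicate block, and between -0.022 (without NC 2) and 0.074 with 1 library left out. Whether libraries with the same replicate number were paired is not known here. Their deviations from the group means had a correlation of 0.0694 across genes, which with 2 pairs cannot decide it. With the number as a replicate block, 63 genes passed both thresholds, and 291 with the block and length correction. There 4 members passed both, while no member did with the block alone. *EPCAM*, which had to differ, was among these 4 and among the 4 with the CPM filter. The cause of these changes was not tested, beyond fewer or other genes and libraries entering each fit. Of 351 values for 27 members under 13 alternatives, 348 kept their direction and 28 came under FDR 0.05. Most of these 27 members were picked for a small p, so their directions were likely to hold. With 2 libraries per group, each error rests on 2 differences between replicates and on the spread of genes of like level.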
